A study of Mus musculus with 8 samples.

Results

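The interleukin 1 (IL-1) family genes described here are Il1a, Il1b, Il18, Il33, Il1rn, Il18bp, Il1r2, Il1r1, Il1rap and Il1rl1. They were found by the RefSeq transcript written beside each array probe, which gave 13 of the 39429 gene probes and 10 of the 20886 named genes on the array. The measured RNA came from macrophages of mice that had all been given LPS, a bacterial endotoxin, with no untreated animals for comparison. WT stands for wild-type mice and EP2KO for mice lacking EP2, a prostaglandin E2 receptor encoded by Ptger2, with 4 arrays per genotype. Strain, age, LPS dose, time, the site from which macrophages were taken and the kind of Ptger2 allele are not given in the sources used here. Whether arrays of 1 genotype stem from separate mice is not stated, and p-values then cover only the variation among these 8 arrays.

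IL-1 alpha and IL-1 beta are cytokines of early inflammation that act through the same receptor, IL-1R1, together with the accessory chain IL-1RAcP. Macrophages make both after sensing LPS, and IL-1 beta and IL-18 leave the cell as active cytokines after cleavage by caspase-1 in the inflammasome. The family has its own brakes: the IL-1 receptor antagonist occupies IL-1R1 without signalling, IL-1R2 is a decoy, and IL-18 binding protein captures IL-18. IL-33, held in the nuclei of stromal and barrier cells, acts through ST2, the product of Il1rl1, on mast cells, innate lymphoid cells and some T cells.

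Slide 1 carried WT 1, WT 2, EP2KO 1 and EP2KO 2, slide 2 carried the other 4 arrays, and they were scanned on different days. Slides separated along the first principal component, with 61.0% of the variance. Between 25554 and 32142 probes per array were well above background, and 0 gene spots were saturated. On each slide WT took positions 1 and 2 and EP2KO positions 3 and 4, so that position and genotype cannot be told apart. All 9 tested macrophage markers, among them Adgre1 and Csf1r, were well above background on every array. The labels give male mice, but 2 probes for Xist, the RNA of the silenced X chromosome, were well above background on 8 of 8 arrays, and 5 probes of Y-linked genes on at most 1 array. Ptger2 was lower in EP2KO by a log2 difference of -1.76 ± 0.17 (standard error, SE; limma adjusted p = 0.0615, and 0.0328 with the slide as a block).

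The sequence before the transcription start is shown for Il1a, Il1b and Il1r2, because the first pair are neighbouring genes on chromosome 2 that moved in opposite directions between the slides, while Il1r2 moved with Il1b. The letters are from RefSeq on build GRCm38.p6, read 5′ to 3′ along the gene's own strand and ending at the base before the start. Il1a lies at chr2:129309973-129310222 (minus strand), Il1b at chr2:129371140-129371389 (minus strand) and Il1r2 at chr1:40085843-40086092 (plus strand). Capitals mark matches to 5 motifs searched on both strands, those of the TATA box, AP-1, NF-kB, the cAMP response element (CRE) and the shorter CRE core.
Il1a: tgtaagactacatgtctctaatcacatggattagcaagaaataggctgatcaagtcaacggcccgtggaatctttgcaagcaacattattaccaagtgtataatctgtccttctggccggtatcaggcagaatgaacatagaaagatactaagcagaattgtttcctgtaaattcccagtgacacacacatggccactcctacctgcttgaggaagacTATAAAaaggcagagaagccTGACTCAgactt
Il1b: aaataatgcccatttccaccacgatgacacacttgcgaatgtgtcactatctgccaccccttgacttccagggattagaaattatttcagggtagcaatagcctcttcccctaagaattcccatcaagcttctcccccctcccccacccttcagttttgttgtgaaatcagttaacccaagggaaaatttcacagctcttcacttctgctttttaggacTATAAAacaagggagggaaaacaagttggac
Il1r2: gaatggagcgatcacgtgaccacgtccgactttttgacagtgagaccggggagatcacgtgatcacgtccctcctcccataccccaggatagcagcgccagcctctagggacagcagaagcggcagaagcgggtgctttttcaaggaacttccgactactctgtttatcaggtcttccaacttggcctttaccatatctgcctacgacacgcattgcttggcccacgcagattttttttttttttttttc

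Il1a carried TATAAA at bases -32 to -27 before the start and Il1b at -31 to -26, and Il1a had an AP-1 match at -12 to -6. The Il1r2 window matched none of the 5 motifs. For the TATA box the letters TATAAA were searched. Over all 15 windows of the 10 genes (250 bases before and 50 from the start), they were found in 6, against 13.6% of 32851 windows of that length. Beside Il1a and Il1b these were 2 Il33 windows (-29 to -24 and -203 to -198), Il18 and Il1rn. In Il18 the letters lay at -175 to -170 on the other strand, and in Il1rn at 15 to 20, after the start. Windows of 1 gene can overlap, as 2 of Il1rn do. AP-1 letters (TGANTCA) were in 2 of the 15 (Il1a and Il1rn; 7.81% of all windows) and NF-kB letters (GGGA and CC with any 4 bases between) in 2 (Il1rn and Il1rap; 20.7% of all). The CRE (TGACGTCA) was in 0 of the 15, beside 1.79% of all windows. Its core, TGACG, which every CRE also holds, was in 2 (Il1r1 and Il1rl1; 20.8% of all). Il1r2, Il1r1 and Il1rl1 lie in 1 run of genes on chromosome 1, with Il1rl2 between the last 2 and Il18r1 after them.

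All 13 probes passed the filter on low signal, which asked for every array of 1 genotype or both to be well above background. Of the 13 probes, 12 were well above background on 8 arrays, and the Il33 probe on 7, the exception being EP2KO 4. Il33 thus passed through WT only, and its genotype differences carry that limit. Il1b was spotted 10 times per array and Il1rap and Il1rl1 had 2 and 3 probes, of which the brightest stood for the gene. Values below are log2 signals relative to each array's 75th percentile, so 0 is the level of that percentile and each step of 1 is a doubling. Probes differ in how brightly they bind, so levels are compared between arrays and never between genes.

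Between genotypes, 0 of the 10 genes passed the limma test at an adjusted p of 0.05, where 0.00965% of the 20736 features tested did. Without a slide term 0 of the 10 had an unadjusted p under 0.05, against 1.98% of all features. Il1a, Il1rn and Il1rl1 had higher means in EP2KO and the other 7 lower ones, with a member median of -0.28 beside -0.03 over all features. In 0 of the 10 were the 4 EP2KO values all above or all below the 4 WT values, a separation seen for 1.39% of features. With the slide as a block 0 of the 10 passed as well (0.0193% of features did), and Il1b and Il1r2 had an unadjusted p under 0.05, as did 7.34% of features. The values that follow are therefore descriptions of the arrays, with the interval that the test leaves.

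**Figure D1:**
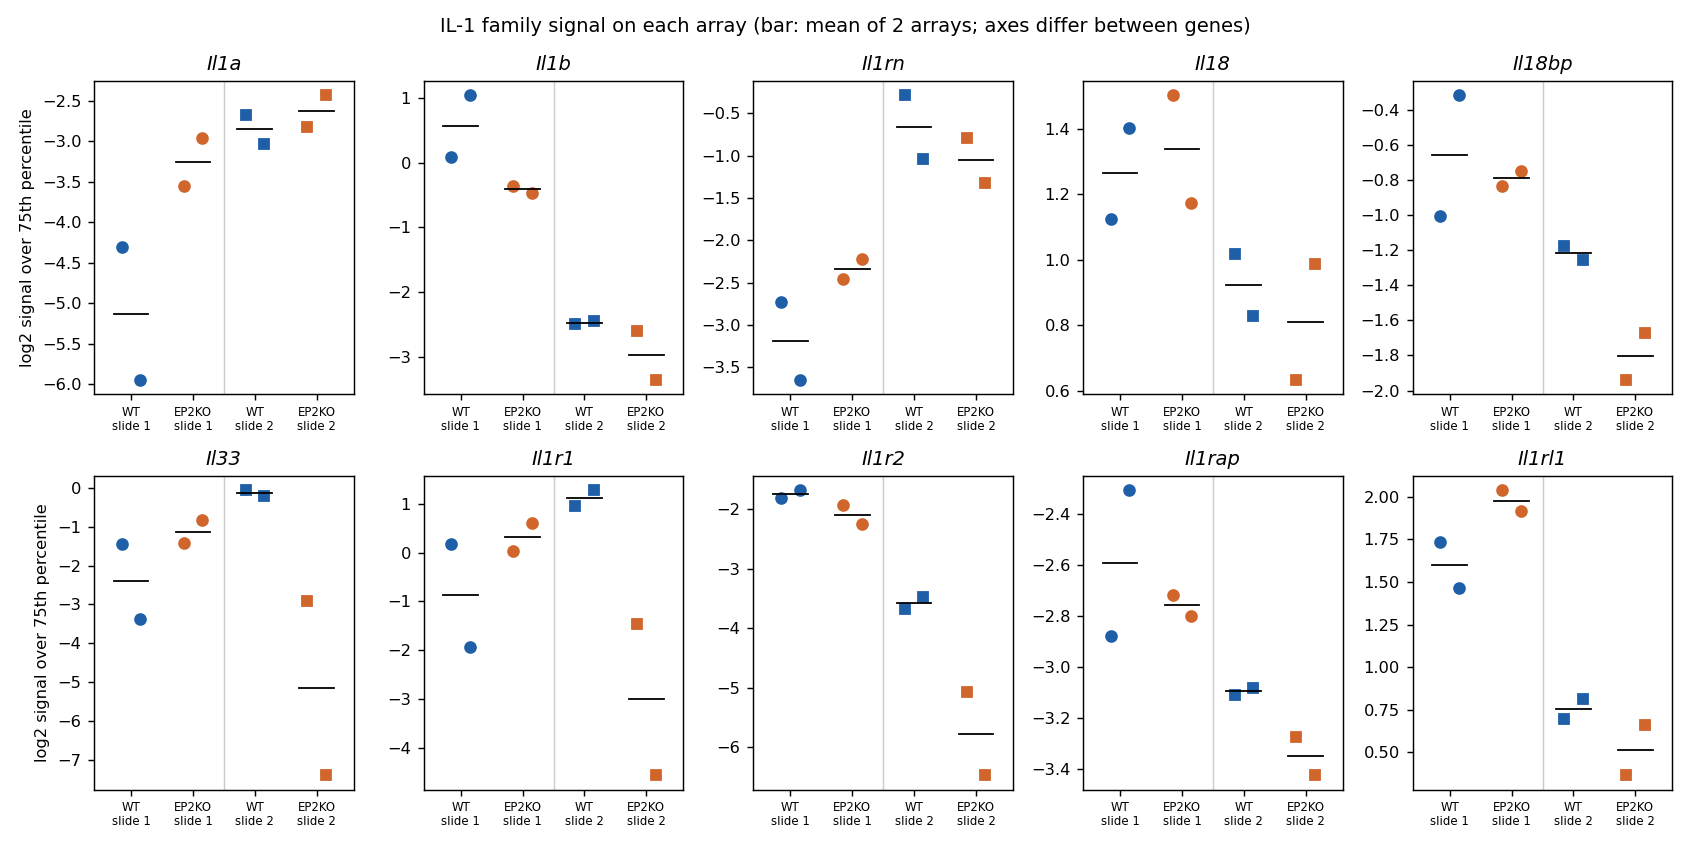
Log2 signal over each array's 75th percentile (y axis, a separate scale per gene) of the 10 genes in WT and EP2KO arrays of each slide (x axis); points are arrays and bars the mean of 2 arrays. Il1b and Il1r2 sit lower on slide 2 and Il1rn higher, whereas Il33 and Il1r1 are lowest on EP2KO 4.

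Il1b, the cytokine gene that LPS switches on in macrophages, had a larger log2 difference between slides (-2.80) than between genotypes (-0.74). The WT arrays, 1 to 4, had log2 signals of 0.09, 1.04, -2.50 and -2.45, and the EP2KO arrays, in the same order, -0.36, -0.46, -2.60 and -3.36. On each slide both EP2KO arrays lay below both WT arrays, yet the genotypes overlapped once the slides were put together. EP2KO minus WT was -0.98 ± 0.36 on slide 1 and -0.51 ± 0.36 on slide 2 (SE, 2 arrays per genotype), and -0.74 ± 0.26 with the slide as a block (95% interval -1.35 to -0.13, limma unadjusted p = 0.0233, adjusted p = 0.553). Leaving out WT 2 gave -0.51, and leaving out EP2KO 3 gave -0.94. The 9 or 10 usable spots of an array had an SD of 0.05 to 0.12, and the slide 2 values of EP2KO 3 (-2.60) and WT 3 (-2.50) lay about as far apart as 1 SD of the EP2KO 3 spots (0.10).

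Il1a encodes IL-1 alpha, which signals without needing caspase-1 cleavage. In WT 1 to 4 its log2 signal was -4.31, -5.95, -2.67 and -3.03, while in EP2KO 1 to 4 it was -3.55, -2.96, -2.83 and -2.43. Slide 1 WT arrays were the lowest, with both EP2KO arrays above them, and on slide 2 the genotypes overlapped. The difference was 1.87 ± 0.53 on slide 1 and 0.22 ± 0.53 on slide 2, and 1.05 ± 0.47 with the slide as a block (interval -0.05 to 2.15, limma adjusted p = 0.704). Without WT 2, the lowest array, it was 0.55.

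Il18, which macrophages carry as a ready-made precursor, had the smallest range of the probes that stand for a gene, 0.87 log2 units over 8 arrays. WT 1 to 4 gave 1.12, 1.40, 1.02 and 0.83 and EP2KO 1 to 4 gave 1.50, 1.17, 0.63 and 0.99. The genotypes overlapped on both slides. EP2KO minus WT was -0.02 ± 0.14 with the slide as a block, with an interval of -0.35 to 0.31, and its sign turned to 0.04 with normexp background correction and to 0.00 with either other scaling.

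Il33, the nuclear alarmin, had the widest range, 7.33 log2 units. WT 1 to 4 stood at -1.44, -3.36, -0.07 and -0.21, and EP2KO 1 to 4 at -1.42, -0.84, -2.90 and -7.40, the last of these not well above background. EP2KO arrays were above WT on slide 1, where EP2KO 1 and WT 1 were nearly level, and below WT on slide 2. EP2KO minus WT was 1.27 ± 1.39 on slide 1 and -5.01 ± 1.39 on slide 2. The fit with the slide as a block gave -1.87 ± 1.50 (interval -5.40 to 1.66, limma adjusted p = 0.970), and -0.35 without EP2KO 4.

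Il1rn encodes the receptor antagonist. The antagonist gene read -2.73, -3.65, -0.29 and -1.04 in WT 1 to 4, beside -2.45, -2.22, -0.79 and -1.32 in EP2KO 1 to 4. EP2KO was above WT on slide 1 (0.85 ± 0.39) and overlapped with it on slide 2 (-0.39 ± 0.39). With the slide as a block the difference was 0.23 ± 0.35 (interval -0.59 to 1.05), and it turned to -0.08 without WT 2.

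Il18bp, the soluble trap for IL-18, read -1.0, -0.32, -1.18 and -1.25 in WT 1 to 4, while EP2KO 1 to 4 read -0.83, -0.75, -1.94 and -1.67. The genotypes overlapped on slide 1 (-0.13 ± 0.24), and both EP2KO arrays were lower on slide 2 (-0.59 ± 0.24). With the slide as a block the difference was -0.36 ± 0.18 (interval -0.79 to 0.07, limma adjusted p = 0.778), and -0.54 without WT 1.

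Il1r2, the decoy receptor, was lower in EP2KO than in WT on both slides, and like Il1b it overlapped between genotypes over all 8 arrays. The 4 WT values were -1.82, -1.69, -3.68 and -3.48, and the 4 EP2KO values -1.94, -2.26, -5.07 and -6.47. On slide 1 the genotypes lay close together (-0.34 ± 0.43), and on slide 2 they were far apart (-2.19 ± 0.43). The fit with the slide as a block gave -1.27 ± 0.45 (interval -2.32 to -0.21, limma unadjusted p = 0.0252, adjusted p = 0.568), and -0.80 without EP2KO 4. Il1b and Il1r2 are the 2 of 10 members whose EP2KO arrays lay below WT on both slides, against 4.1% of all features.

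Il1r1, the signalling receptor, was at 0.18, -1.93, 0.96 and 1.27 in WT 1 to 4, as against 0.04, 0.61, -1.45 and -4.57 in EP2KO 1 to 4. WT 2 was low among the WT arrays and EP2KO 4 lowest of all, the pattern already described for Il33. The genotypes overlapped on slide 1 (1.20 ± 1.08), and EP2KO was lower on slide 2 (-4.13 ± 1.08). With the slide as a block the difference was -1.47 ± 1.23 (interval -4.37 to 1.44, limma adjusted p = 0.982), and -0.31 without EP2KO 4.

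Il1rap, the accessory chain that IL-1R1 and ST2 share, differed little between genotypes. Its brighter probe read -2.88, -2.31, -3.11 and -3.08 in WT 1 to 4, whereas EP2KO 1 to 4 read -2.72, -2.80, -3.27 and -3.42, with a slide-blocked difference of -0.21 ± 0.14 (interval -0.53 to 0.12), which was -0.10 without WT 2 and -0.33 without WT 1. The other probe, which names another transcript of the gene, had a genotype difference of -0.02 and overlapped on both slides.

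Il1rl1, the IL-33 receptor gene, gave 1.73, 1.46, 0.70 and 0.81 in WT 1 to 4, as against 2.04, 1.92, 0.37 and 0.66 in EP2KO 1 to 4. EP2KO arrays were both above WT on slide 1 (0.38 ± 0.16) and both below it on slide 2 (-0.24 ± 0.16). With the slide as a block the difference was 0.07 ± 0.16 (interval -0.31 to 0.45), and it turned to -0.05 without WT 2. The second probe for the same transcript differed by -0.01 and the third, naming another transcript, by -0.37. Il33 and Il1rl1 are the 2 members with EP2KO above WT on slide 1 and below it on slide 2, as for 5.33% of features. All 3 Il1rl1 probes had a higher EP2KO mean on slide 1 and a lower one on slide 2.

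**Figure D2:**
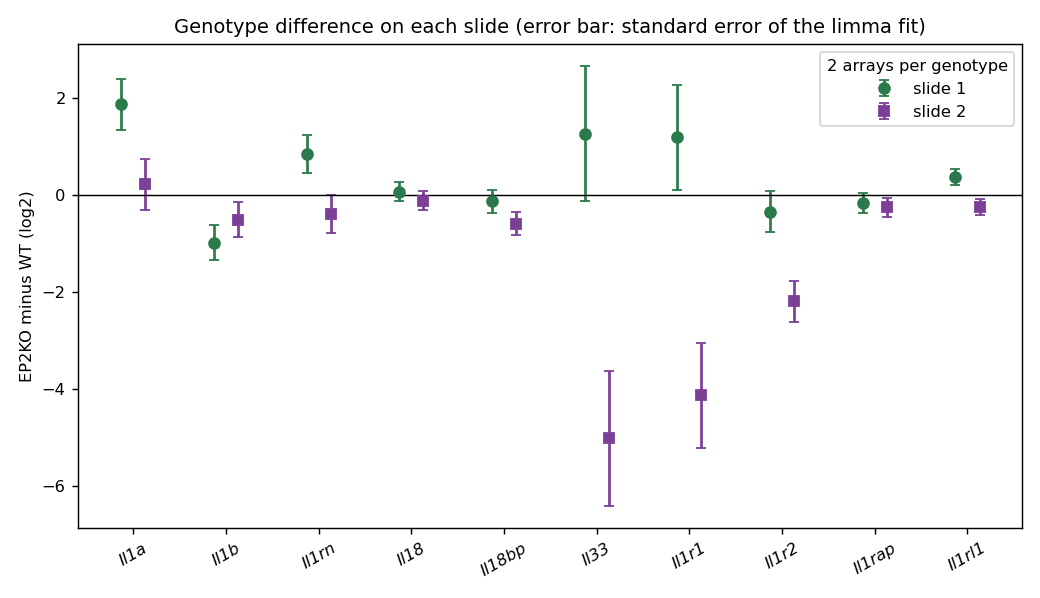
EP2KO minus WT in log2 units (y axis) for each gene (x axis) on slide 1 (circles) and slide 2 (squares), 2 arrays per genotype; error bars are the SE of the limma fit. Il1b, Il18bp, Il1r2 and Il1rap are below 0 on both slides, whereas Il33 runs from 1.27 on slide 1 to -5.01 on slide 2 and Il1r1 from 1.20 to -4.13.

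Whether the genotype difference itself changed between slides was tested with an interaction term. In the limma fit 0 of the 10 genes passed (0.0145% of features did), and 4 of 10 had an unadjusted p under 0.05, as did 21.1% of features. The 4 were Il33 (-6.28 ± 1.97, adjusted p = 0.163), Il1r1 (-5.32 ± 1.53, adjusted p = 0.149), Il1r2 (-1.85 ± 0.60, adjusted p = 0.171) and Il1rl1 (-0.62 ± 0.23, adjusted p = 0.207). Without EP2KO 4, Il33 stood at -4.03, Il1r1 at -3.77 and Il1r2 at -1.14. Il1a passed without WT 1 only (-2.47, adjusted p = 0.0415), a setting in which 1279 features passed in all and the slide 1 WT group held 1 array.

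The slide comparison, with genotype in the fit, called 8 of the 10 genes against 43.2% of all features. Lower on slide 2 were 6 genes (18.2% of features were called lower) and higher were 2 (25.1% were called higher), and the member median was -0.73 beside 0.06 over all features. Slide, scan day and replicate numbers coincide, so what sets the slides apart cannot be told apart from any difference between the mice.

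**Figure D3:**
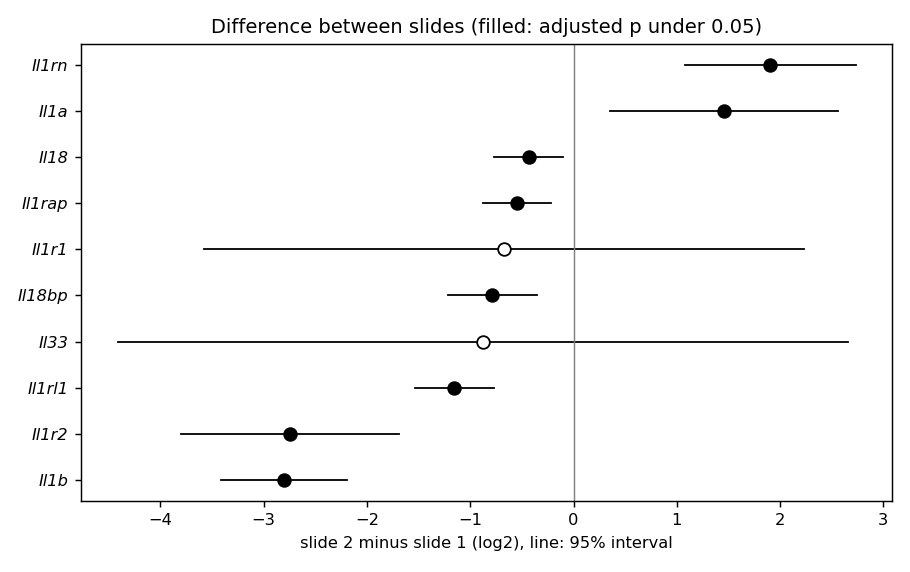
Slide 2 minus slide 1 in log2 units (x axis) for the 10 genes (y axis), from the limma fit with genotype, 4 arrays per slide; lines are 95% intervals and filled points have an adjusted p under 0.05. Il1rn and Il1a rose, 6 genes fell, and the intervals of Il33 and Il1r1 include 0.

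Il1b fell most on slide 2, by a log2 difference of -2.80 ± 0.26, a 6.98-fold lower signal (limma adjusted p = 0.0003). The decoy Il1r2 fell with it (-2.75 ± 0.45, adjusted p = 0.0029), and for both every slide 2 array lay below every slide 1 array, as for 18% of features. Il1rn, the antagonist, rose by 1.91 ± 0.35 (adjusted p = 0.0049), with every slide 2 array above every slide 1 array, as for 25.1% of features. Il1a rose by 1.45 ± 0.47 (adjusted p = 0.0413) with overlap between the slides, and it passed in 3 of the 8 fits that left out 1 array (adjusted p 0.0245 to 0.103), with a difference of 0.96 without WT 2. The IL-33 receptor Il1rl1 fell by 1.15 ± 0.16 (adjusted p = 0.0016), and its other probes had slide differences of -1.34 and -1.09. Its brightest and second probes did not overlap between slides, as for 18% of features, and the third did.

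Smaller falls were those of Il18bp (-0.79 ± 0.18, limma adjusted p = 0.0126), Il1rap (-0.55 ± 0.14, adjusted p = 0.0173) and Il18 (-0.43 ± 0.14, adjusted p = 0.0419). For these 3 genes the slides did not overlap either, as for 18% of features. Il18 passed in only 2 of the 8 fits without 1 array and Il1rap in 6, while Il18bp passed in 8. The other Il1rap probe had -0.37 and overlapped between slides. Il33 (-0.88 ± 1.50) and Il1r1 (-0.67 ± 1.23) did not pass, and without EP2KO 4 both turned positive, to 0.65 and 0.48. With normexp background correction Il1b, Il1rn and Il1rl1 still passed, while Il1r2 (-1.44, adjusted p = 0.0541), Il1a, Il18, Il18bp and Il1rap did not.

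Differences taken within an array do not depend on the value subtracted to scale it. Because the level of 1 probe against another has no meaning, only the change of such a difference is given. Il1rn relative to Il1b was higher on slide 2 by 4.71 log2 units, with an SD of 1.31 among the slide 1 arrays and 0.35 among the slide 2 arrays. Il1a relative to its neighbour Il1b was higher by 4.26 (SD 1.98 and 0.66). In both pairs every slide 2 array lay above every slide 1 array, and on slide 1 both EP2KO arrays lay above both WT arrays. Each pair joins genes already described as moving in opposite directions, between slides and between genotypes on slide 1. These separations therefore restate the values above and are no further support. From slide 1 to slide 2, Il1a relative to Il1rn changed by -0.45, Il18bp relative to Il18 by -0.35 and Il1r2 relative to Il1r1 by -2.07. Il33 relative to Il1r1 changed by -0.21 (SD 0.09 on slide 1 and 0.78 on slide 2). It was lowest on EP2KO 4, where Il33 was not well above background.

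**Figure D4:**
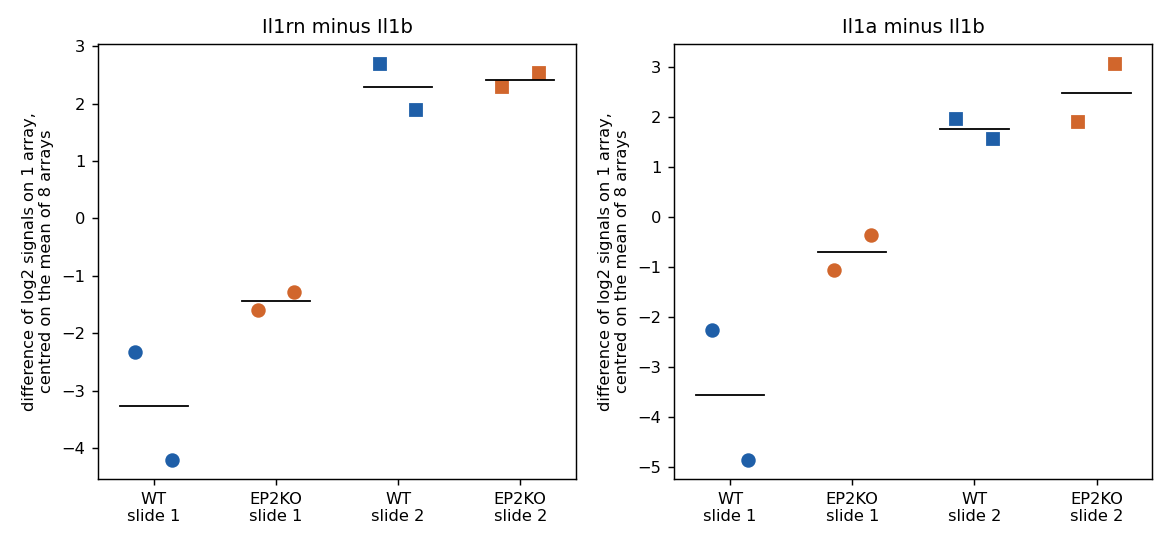
Difference of 2 genes' log2 signals on the same array, centred on the mean of 8 arrays (y axis), for Il1rn against Il1b and Il1a against Il1b by genotype and slide (x axis); points are arrays and bars the mean of 2. Both differences are higher on all 4 slide 2 arrays, by 4.71 and 4.26 on average.

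Markers of other cells moved with some of the members. In these bulk samples more cells of a type and more RNA per cell cannot be told apart. The 14 fibroblast and mesothelial markers, among them Col1a1, Dcn and Msln, were well above background on all 8 arrays. Their summed signal, in units of the 75th percentile, was 90.8 and 22.0 on WT 1 and WT 2, 117 and 133 on WT 3 and WT 4, 55.5 and 91.8 on EP2KO 1 and EP2KO 2, and 25.4 and 4.50 on EP2KO 3 and EP2KO 4. WT 2, EP2KO 3 and EP2KO 4 are the 3 low arrays here, and they are also the 3 lowest for Il33 and Il1r1. The sum was led by Col1a2 and Dcn on every array. Exceptions in the list were Thy1 and Lum. Thy1, which T cells also carry, read 1.64 on WT 2 but -0.06 and -0.31 on WT 3 and WT 4. Lum was lower on EP2KO 1 (-2.72) than on EP2KO 3 (-1.66). The part of fibroblasts and mesothelial cells in the values of Il33 and Il1r1 was not tested.

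Of the 9 mast cell and basophil markers tested, 8 were well above background on 8 arrays and the basophil protease Mcpt8 on 7. Their summed signal was 12.0 to 19.3 in WT and 31.4 to 33.5 in EP2KO on slide 1, and 2.90 to 3.57 in WT and 8.28 to 13.2 in EP2KO on slide 2. Like Il1rl1 this sum, led by the proteases Cpa3 and Mcpt4 except in WT on slide 2, was highest in EP2KO on slide 1, but on slide 2 it was higher in EP2KO while Il1rl1 was lower. Exceptions were Mcpt8, lower in EP2KO on both slides (-0.58 and -0.45), and Hdc, which makes histamine, lower in EP2KO on slide 2 (-2.21). The 11 neutrophil markers were well above background on every array and summed to 67.9 to 128 on slide 1 and 55.2 to 59.9 on slide 2, beside the higher Il1b and Il1r2 of slide 1. Csf3r was the largest part of that sum on all 8 arrays, with a slide difference of -0.17 that was not called. Called lower on slide 2 were 5 of the 11, among them S100a9 (-4.13), beside 18.2% of all features. Called higher were 2, Mmp8 (2.63) and Elane (1.36), beside 25.1% of all features. Of 8 B cell markers 7 were called lower on slide 2, as were 6 of the 10 family members and 18.2% of all features. The B cell markers had a median slide difference of -3.18 and a sum of 57.6 to 94.4 on slide 1 and 4.68 to 15.3 on slide 2. The macrophage markers summed to 260 to 487, with the slide 2 WT arrays lowest. The part of mast cells, neutrophils and B cells in the values of the members that fell was not tested.

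**Figure D5:**
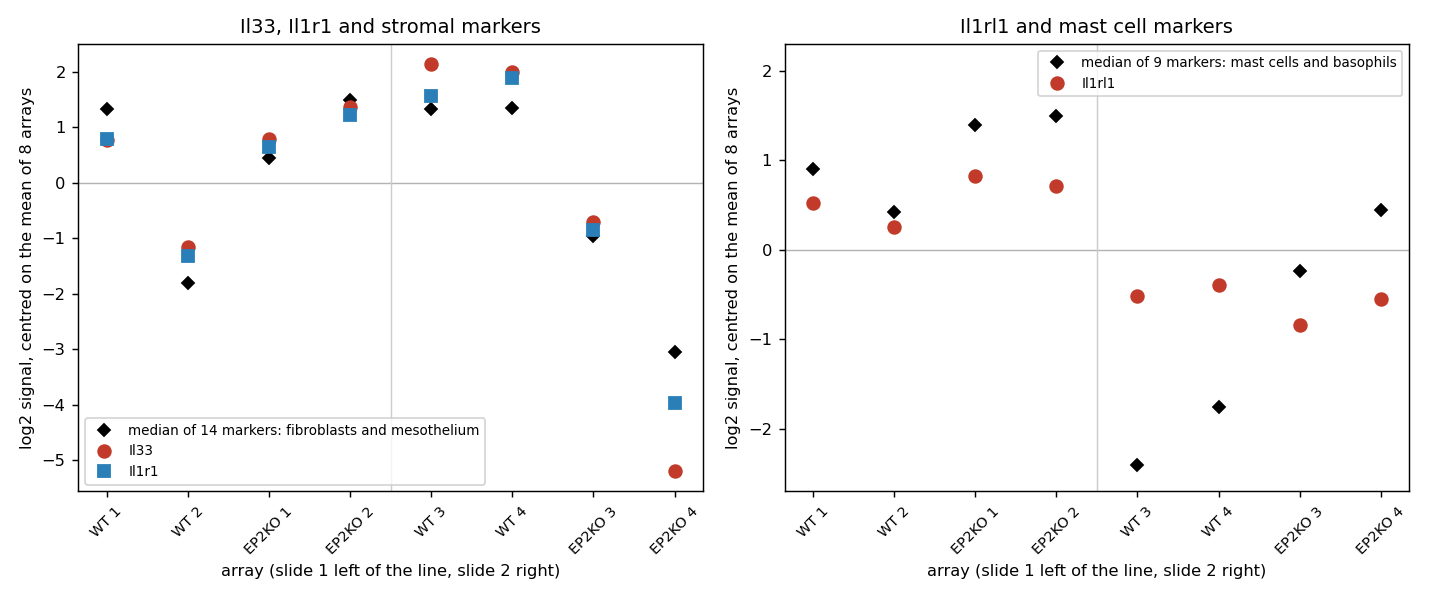
Log2 signal centred on the mean of 8 arrays (y axis) on each array (x axis): on the left Il33, Il1r1 and the median of 14 fibroblast and mesothelial markers, on the right Il1rl1 and the median of 9 mast cell and basophil markers. Il33, Il1r1 and the stromal median are low on WT 2, EP2KO 3 and EP2KO 4, and on slide 2 the mast cell median is higher in EP2KO where Il1rl1 is not.

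Named genes with the nearest pattern over the 8 arrays were ranked by the root mean square distance after each gene's own mean was subtracted, among 13599 genes well above background on every array. For Il1r1 they were Osmr, the oncostatin M receptor (distance 0.14 log2 units, against a spread of 1.83 for Il1r1 itself), Serpinf1 (0.21) and Plscr2 (0.21). Nearest to Il1rn were Itgax, which encodes CD11c (0.21), the metalloproteinase Mmp19 (0.21) and Gng11 (0.22), with a spread of 1.06 for Il1rn. Il1b, with a spread of 1.49, was followed most closely by Spink2 (0.25), Apcdd1 (0.29) and Upp1 (0.29). Il1a (spread 1.09) had Lipn, Colec12 and Lrrc66, each at 0.29, and Il1r2 (spread 1.62) had Tmem119 (0.33), Mirt2 (0.38) and Slc39a4 (0.45). Il33 was not ranked because of EP2KO 4, and the other members varied by under 2 log2 units.

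Genes of the same pathway gave no genotype call in either fit: in each of 4 lists 0 members passed the limma test, with or without the slide as a block. Of 11 further family genes only the IL-18 receptor chains Il18r1 and Il18rap, and Sigirr, an inhibitory receptor, were bright enough to test. EP2KO minus WT was -0.73 for Il18r1 (SE 0.50 without a slide term, 0.14 with the slide as a block). For Il18rap it was -0.89 (SE 0.70 and 0.23) and for Sigirr -0.34 (SE 0.66 and 0.15). The slide-blocked limma adjusted p was 0.193, 0.357 and 0.699 in that order. For Il18r1 and Il18rap both EP2KO arrays lay below both WT arrays on each slide, as for 4.1% of features. Sigirr overlapped on slide 2. All 3 were called lower on slide 2, as were 18.2% of all features (25.1% were called higher), Il18rap at -1.84, Sigirr at -1.80 and Il18r1 at -1.35. The 14 T cell, NK cell and innate lymphoid markers, cells that carry the IL-18 receptor, were called lower on slide 2 in 11 cases and higher in 1, Il7r (3.83). Their centred median was 1.47 and 1.25 on WT 1 and WT 2, -0.47 and -0.63 on WT 3 and WT 4, 0.36 and 0.21 on EP2KO 1 and EP2KO 2, and -1.31 and -1.01 on EP2KO 3 and EP2KO 4. By summed signal, slide 2 EP2KO arrays (29.6 to 30.4) instead exceeded slide 2 WT arrays (20.1 to 21.6). Il7r was the largest part of the sum on every slide 2 array, and Cd2 on every slide 1 array. Il7r read 3.58 and 3.75 on WT 3 and WT 4, beside 4.43 and 4.41 on EP2KO 3 and EP2KO 4. Slide 1 sums were 36.7 to 39.8 for WT and 21.7 to 30.9 for EP2KO. The part of T cells, NK cells and innate lymphoid cells in the 3 genes was not tested. The IL-36 agonists, Il1f10, Il1rl2, Il1rapl1 and Il1rapl2 were not well above background throughout either genotype, and Il36rn was matched to no probe.

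Of 14 genes that process or release IL-1 and IL-18, the smallest genotype p-values in the fit without a slide term were those of the inflammasome sensor Nlrp1b (-0.49 ± 0.29) and the channel gene Panx1 (-0.27 ± 0.20). Between slides 1 rose (25.1% of all features did), the ATP receptor P2rx7 (0.92), and 5 fell (18.2% of all did), among them Mefv, which encodes pyrin (-1.93), the adaptor Pycard (-1.54) and the sensor Nlrc4 (-0.74). Of 20 signalling genes below the receptors, Traf6 (0.20 ± 0.11) and the adaptor Myd88 (-0.23 ± 0.22) had the smallest genotype p-values in the fit without a slide term. Between slides 4 rose and 4 fell, beside 25.1% and 18.2% of all features, led by Irak3, an inhibitory kinase homologue (-1.02), Mapk8 (-0.90), Tollip (0.87) and Nfkb1 (-0.77).

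Of 16 known targets of IL-1 signalling 14 were tested, and Nfkbiz (-0.37 ± 0.35) and the monocyte attractant Ccl2 (-0.92 ± 0.94) had the smallest p-values between genotypes without a slide term. Between slides 8 fell and 1 rose, beside 18.2% and 25.1% of all features. Il6 had the largest fall (-5.11 ± 0.40), followed by Lcn2 (-2.06), Nfkbia, the gene of the NF-kB inhibitor (-1.94), and the acute phase gene Saa3 (-1.46). The median slide difference of these targets was -1.02 beside 0.06 over all features. On slide 2 Il1b was lower (-2.80) and Il1a, whose product acts through the same receptor, was higher (1.45). The part of either in the values of these targets was not tested.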

How the data were processed

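RNA of macrophages from LPS-treated WT and EP2KO mice was labelled with Cy3 and hybridised to 8 1-colour Agilent arrays, 4 per genotype. Scanner files as deposited give the intensity of each spot on a linear scale, after background correction within the array, per the file headers, and without scaling to other arrays. The value table of the series holds the same values. Extraction used Feature Extraction 10.7.1.1 per the file headers and Agilent Feature Extraction 9.1 per the submitters' processing notes. The number of arrays limits the precision.

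Log2 of the processed signal minus each array's 75th percentile was taken, without the 1377 control spots and with outlier spots set missing. Probes (39429) were named through RefSeq transcripts of a GRCm38.p6 gene table; the array design states mm9, so that table gives no probe coordinates. Probes entered the fits if every array of 1 genotype or both showed them well above background, and the brightest stood for its gene (20736 features). Fits used limma 3.58.1 in R 4.3.3 with Benjamini-Hochberg adjustment over all features, two-sided, and were tested on simulated data. For the WT and EP2KO array with the same number, r of their deviations across genes was 0.74, 0.12, 0.55 and 0.43. Each such pair also shares a slide. Taken within a slide, r was -0.39 on slide 1 and -0.10 on slide 2, so these pairs did not move together there. The replicate block was an alternative. Normexp was run on the median spot signal. Other settings changed the background correction, the scaling, the filter on dim probes, the probe that stands for a gene, the block or the variance model, or left out 1 array.

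Every listed family member is named. Of each other pathway list, up to 4 members past the threshold are named, and failing that the 2 of lowest unadjusted p, and per variable member the 3 named genes of nearest pattern. The members and lists were chosen with earlier results of these data known.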

Additional observations from a re-analysis of the deposited data

Results flagged for a closer look

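Il33 and Il1rl1 stood out because every EP2KO array lay above WT on slide 1 and below WT on slide 2, as for 5.33% of all features. For Il1rl1 this held for the brightest probe only, as its other probes overlapped between genotypes on slide 1. The change of the genotype difference from slide 1 to slide 2 was -6.28 for Il33 and -0.62 for Il1rl1. The limma interaction test of this change missed the threshold for both (adjusted p = 0.163 and 0.207). For Il33 the slide 1 separation rests on EP2KO 1 (-1.42) and WT 1 (-1.44) being nearly level, and 1 of its slide 2 values was not well above background. The Il33 probe passed the filter on low signal through WT only. In the 20 groups of 4 arrays, no member had an array far from the other 3 by Dixon's criterion. That test cannot show that no array stands apart, because each group spans both slides or both genotypes, whose differences widen its range. Il33 on EP2KO 4 (-7.40) lay below the next EP2KO array (-2.90). The slide-blocked genotype difference of Il33 moved from -1.87 to -0.35 without EP2KO 4.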

How the results depend on the processing

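No member passed in the genotype comparison under any of the alternatives run. The 2 features called there became 0 with the replicate block (1130 with an unadjusted p under 0.05), 0 on slide 1 alone, 340 on slide 2 alone, 4 with the slide as a block and 0 to 4 without 1 array. The replicate block changed no member's call. The 4 of the slide-blocked fit became 0 to 7 without 1 array, a setting added after the data had been seen. The 3 interaction calls became 0 with normexp and 0 to 1279 without 1 array (1279 without WT 1). The 8966 slide calls became 3533 with normexp and 6613 to 9736 without 1 array. Normexp moved the median of all features to -0.12 for genotype and 0.18 for slide. With it the slide calls of 5 of 8 members were lost.

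EP2KO minus WT changed sign for Il18 (median scaling 0.000598, quantile scaling 0.0033, normexp 0.042, slide 1 alone 0.075, without 1 array -0.16 to 0.13, slide-blocked -0.10 to 0.071), Il1rl1 (mean of probes -0.10, slide 2 alone -0.24, without 1 array -0.19 to 0.36, slide-blocked -0.046 to 0.19) and Il1rn (slide 2 alone -0.39, without 1 array -0.35 to 0.78, slide-blocked -0.079 to 0.50). On slide 1 alone it also changed sign for Il1r1 (1.20) and Il33 (1.27). The interaction of Il1rap turned to 0.091 with quantile scaling and ran from -0.37 to 0.20 without 1 array, and that of Il1b from -0.0038 to 0.94. The slide difference ran from -1.63 to 0.48 for Il1r1 and from -1.89 to 0.65 for Il33 without 1 array. The cause of these changes was not tested. Il33 on EP2KO 4 is limited by its low signal over background.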
